A study of Mus musculus with 6 samples.

Results

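Ptprz1 and 6 genes whose products bind it or share its ligands were followed in sorted CD45- cells of mouse mammary tumors. The 7 members were Ptprz1 itself, the ligands Ptn and Mdk, the adhesion partners Cntn1 and Nrcam, and the syndecans Sdc1 and Sdc3. They were found by matching the RefSeq accession of each gene probe to these symbols, which gave 10 of the 55681 gene probes on the array, and all 7 genes were among the 22504 genes or transcripts tested. Ptprz1 was chosen by its low ratio and its rank product call in the very comparison described here, and the other 6 for what their products do, so the ratios of Ptprz1 and the call are given only as a description of that choice. All 10 probes were well above background in both channels on all 6 arrays.

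The cells came from tumors of the MMTV-PyMT model, in which a mouse mammary tumor virus promoter drives the polyoma middle T oncogene in mammary epithelium. Both groups carried this transgene on a C57BL/6 background, and both were grown by placing 1000000 late carcinoma cells in the mammary gland of C57BL/6 hosts, 6 to 10 weeks old per the study's methods. The donor cells were RANK+/+ or RANK-/-, the latter from mice null for the receptor activator of NF-kB, a TNF receptor family member encoded by Tnfrsf11a. Host stroma without CD45, such as fibroblasts and endothelium, was not removed by the sort. Each array carried 1 RNA of each genotype in 2 colors. There were 3 pairs of RNAs, each on 2 technical arrays, A and B, so n = 3 for every mean. The RANK-/- RNA was in Cy5 in pair 1 and in Cy3 in pairs 2 and 3. Nothing in the labels says that the 3 RNAs of a genotype came from separate tumors, so the spread between pairs may be partly technical.

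PTPRZ1 is a receptor tyrosine phosphatase that carries chondroitin sulfate chains, and a secreted form of it, phosphacan, is a proteoglycan of the neural matrix. It is best known from glial precursors and gliomas. The growth factors pleiotrophin (Ptn) and midkine (Mdk) bind its sugar chains and hold back its phosphatase activity, which leaves substrates such as beta-catenin and Fyn more phosphorylated. Its outer part also binds the neural adhesion molecules contactin 1 and NrCAM, and the ligands also bind syndecans, which carry heparan sulfate chains.

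The gene targeted in these tumors went against its label. Tnfrsf11a, measured by 1 probe, had log2 ratios of RANK-/- over RANK+/+ of 2.03, 1.15 and 1.76 in pairs 1, 2 and 3, so that in each pair the RNA labeled RANK-/- was the brighter one. Where in the gene this probe lies relative to the deletion is not given in the sources used here. All directions below rest on the channel labels as they stand. Ratios of different pairs were weakly related across all genes (Pearson r of -0.279 for pairs 1 and 2, 0.178 for pairs 1 and 3 and -0.0792 for pairs 2 and 3). Epithelial RNA was present in both channels, with Epcam and Krt8 well above background on all 6 arrays. The leukocyte marker Ptprc, which encodes CD45, was well above background on 5 arrays in the RANK-/- channel and 4 in the RANK+/+ channel.

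Of the 7 members, by the brightest probe of each, Ptprz1 and Sdc1 had ratios below 0 in all 3 pairs, as did 9.65% of all genes, and Sdc3 had ratios above 0 in all 3, as did 9.93%. The bases before the annotated starts of these genes are shown to place them in the genome (RefSeq, assembly GRCm38.p6, plus strand, 5′ to 3′). Capitals mark the GC box GGGCGG, searched on both strands. The stretches are chr6:22875252-22875314 for Ptprz1, which has 63 bases in the promoter window before its first annotated base, chr12:8771146-8771395 for Sdc1 and chr4:130792287-130792536 for Sdc3, each of 250 bases.
Ptprz1: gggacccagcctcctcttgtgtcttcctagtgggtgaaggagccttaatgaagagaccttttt
Sdc1: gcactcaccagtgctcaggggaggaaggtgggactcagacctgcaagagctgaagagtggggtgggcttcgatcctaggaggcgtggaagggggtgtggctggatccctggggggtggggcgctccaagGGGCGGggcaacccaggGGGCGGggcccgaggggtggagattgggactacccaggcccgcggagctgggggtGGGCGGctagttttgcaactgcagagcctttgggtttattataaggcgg
Sdc3: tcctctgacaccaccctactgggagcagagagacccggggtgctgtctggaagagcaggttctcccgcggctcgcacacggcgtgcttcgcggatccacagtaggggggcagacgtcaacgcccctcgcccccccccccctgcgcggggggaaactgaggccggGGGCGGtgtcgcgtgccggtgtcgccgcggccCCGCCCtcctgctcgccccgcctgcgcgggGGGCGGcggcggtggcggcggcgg
The printed stretches of Sdc1 and Sdc3 hold 3 GC boxes each and that of Ptprz1 holds 0. In its whole window of 300 bases Ptprz1 has 2 GC boxes, Nrcam 2, Ptn 0 and the 3 windows of Cntn1 0 each. A GC box is common, since 35.7% of all 32851 promoter windows of this length hold at least 1. The TATA box TATAAA, held by 13.6% of windows, was in 1 window of Cntn1 and in 0 windows of Ptprz1, Ptn, Nrcam, Sdc1 and Sdc3. These matches are descriptions of letters only, as no binding or methylation was measured.

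The receptor gene Ptprz1 had a lower signal in the channel labeled RANK-/- on all 6 arrays. Its brighter probe, A_51_P206405, gave normalized log2 levels of 7.97, 8.81 and 8.05 in the RANK-/- RNAs of pairs 1, 2 and 3, and of 9.88, 9.67 and 10.41 in the RANK+/+ RNAs. All 3 RANK-/- levels lay below all 3 RANK+/+ levels, and the gap was smallest in pair 2, whose RANK-/- RNA was the highest of its genotype and whose RANK+/+ RNA was the lowest of its own. The genotype means were 8.28 ± 0.46 and 9.99 ± 0.38 (SD, n = 3). The log2 ratios were -1.91, -0.86 and -2.36, with a mean of -1.71 ± 0.77 (SD, n = 3; SE 0.44), a 3.27-fold lower signal.

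A second Ptprz1 probe gave the same picture. A_55_P2000439, matched to the same transcript accession, had log2 ratios of -1.88, -1.09 and -2.59, with a mean of -1.85 ± 0.75 (SD, n = 3). Arrays A and B of a pair differed by at most 0.20 for either probe, so the difference between pairs was far wider than that between technical arrays. The lower signal was seen with the RANK-/- RNA in Cy5 (pair 1) and in Cy3 (pairs 2 and 3). In the raw scans the brighter probe had median signals of 182 to 398 in the RANK-/- channel and 730 to 2055 in the RANK+/+ channel, against local backgrounds of 35 to 76.

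**Figure D1:**
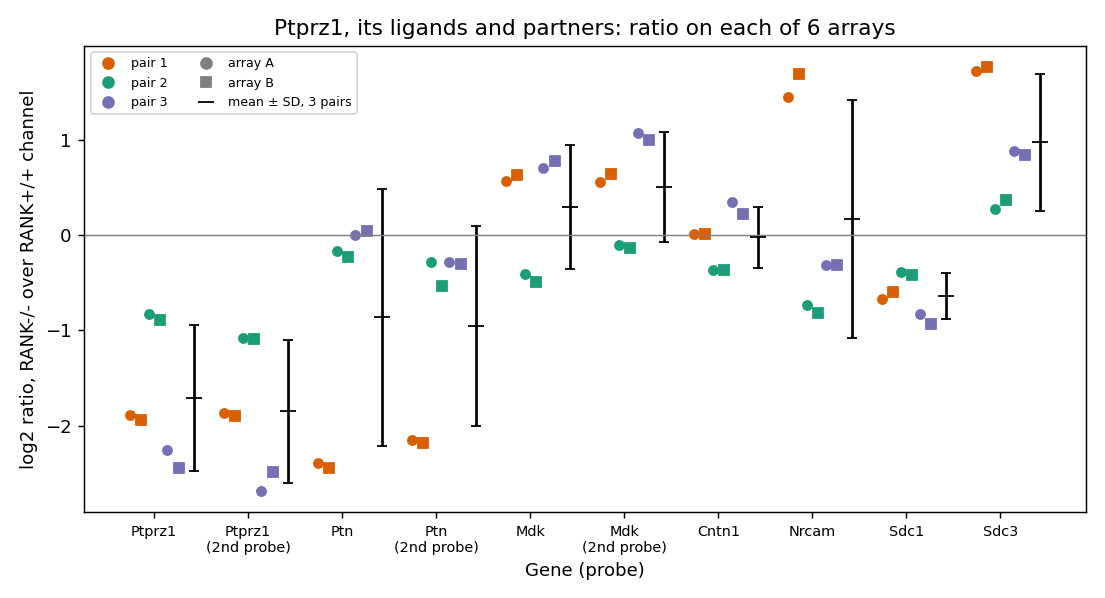
The log2 ratio of the RANK-/- over the RANK+/+ channel (y axis) for each of the 10 probes of the 7 genes (x axis), with 1 point per array, colored by pair, and the mean ± SD over 3 pairs as a black bar. Both Ptprz1 probes and Sdc1 lie below 0 on all 6 arrays, Sdc3 lies above 0 on all 6, and for Ptn and Nrcam pair 1 stands apart from pairs 2 and 3.

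Among 22502 genes with a ratio in all 3 pairs, 0.573%, 3.43% and 0.12% had a lower ratio than Ptprz1 in pairs 1, 2 and 3, and 0.0622% had a lower mean, which made it the 15th from the bottom. The choice of Ptprz1 used a rank product, which asks how low a gene ranks in all pairs at once, at a proportion of false positives (pfp) under 0.05. Here 12 genes (0.0533% of those tested) were called lower and 10 (0.0444%) higher in the channel labeled RANK-/-, and of the 7 members only Ptprz1, with a pfp of 0.039, was among either. With the labels turned these counts would change places. Since this value chose the gene it is no test of it, and the pfp was above 0.05 with each pair left out (0.127 to 0.652) and in several other settings, up to 0.135 with processed intensities. The last gene inside the threshold was an unnamed transcript (A_55_P2020072) with a pfp of 0.0469 and ratios of -3.49, 0.22 and -2.56, and the first outside was Krt27 with a pfp of 0.05 and ratios of -2.33, -1.12 and -1.75. By limma, 0% of genes passed an adjusted p of 0.05, and the smallest adjusted p was 0.999. Of the 22504 genes, 646 had an unadjusted p under 0.05, a smaller share than the 0.05 expected with no difference in any gene.

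The genes whose 3 pair ratios lay nearest to those of Ptprz1 were Heph, Krt27, Cst3, Tmem139 and Krt17, in this order, by the root mean square difference over the 3 pairs. Heph, which encodes the copper-dependent ferroxidase hephaestin, was at a distance of 0.34, with log2 ratios of -1.57, -0.78 and -1.88. Krt27, a keratin of the inner root sheath of the hair follicle, was at 0.45. Cst3, which encodes the protease inhibitor cystatin C, was at 0.47, with ratios of -1.80, -0.18 and -1.93, and Tmem139 at 0.51, with -1.79, -0.70 and -1.50. Krt17, a keratin of basal epithelium and hair follicle, was at 0.57, with -1.66, 0.05 and -2.10. The ratio of pair 2 was the closest to 0 in each of these 5 genes, a likeness to Ptprz1 that the way they were picked favors.

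**Figure D2:**
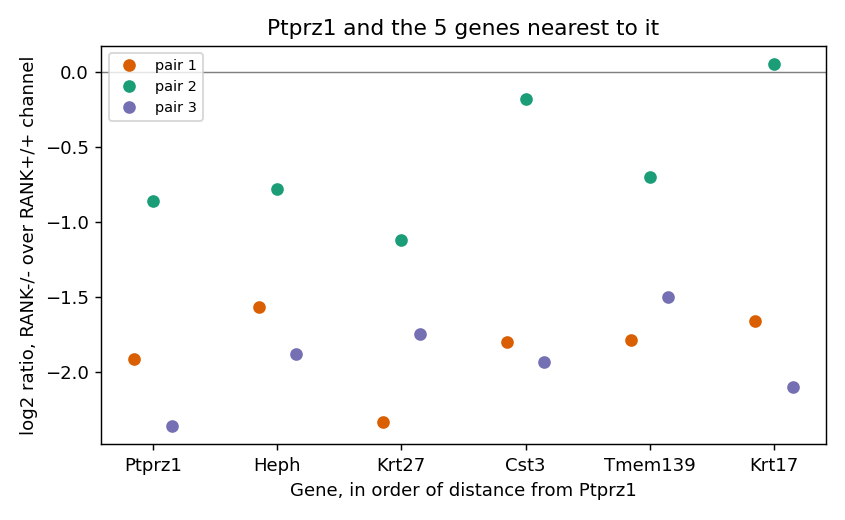
The log2 ratio of the RANK-/- over the RANK+/+ channel (y axis) of Ptprz1 and of the 5 tested genes nearest to it (x axis), 1 point per pair, arrays A and B averaged. In all 6 genes the point of pair 2 is the highest, at -0.86 for Ptprz1 and at 0.05 for Krt17.

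Markers of cell types in which Ptprz1 or the genes near it are found were set beside it. The basal list (8 of 8 genes tested) had a summed log2 level of 14.77 to 14.96 in the RANK-/- RNAs. In the RANK+/+ RNAs it was 15.06 to 15.71. The brightest genes carry most of such a sum. How often the sums of other gene lists lie this far apart was not computed, so these ranges are only a description. By the brightest probe 0 of the 8 genes were lower in all 3 pairs (9.65% of all genes) and 1 (Oxtr) was higher (9.93%). The probes of Trp63, a defining gene of basal cells, disagreed, with 0.28, -0.02 and 0.17 by the brighter A_55_P2161055 and -1.45, -1.07 and -0.50 by A_51_P216550. The most shifted were Krt17, with a mean log2 ratio of -1.23, and Krt5, with -1.07, at one end and Oxtr (0.89) and Acta2 (0.30) at the other. In the hair follicle list, 7 of 8 genes were tested, and Tchh and Krt27 were lower in all 3 pairs (9.65% of all genes). Trps1 was higher in all 3 (9.93%) by its brightest probe but not by its other 2, and the median of the list's means was -0.40. Its lowest means were those of Tchh (-2.99) and Krt27 (-1.73) and its highest those of Sox9 (0.46) and Trps1 (0.34), and its summed level was 13.75 to 14.14 in the RANK-/- RNAs and 13.59 to 14.34 in the RANK+/+ RNAs. Tchh encodes trichohyalin of the inner root sheath. The part of basal or hair follicle cells in the Ptprz1 result was not tested. In bulk RNA of this kind, fewer cells of a type and less RNA per cell cannot be told apart.

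Glial markers, the class with which Ptprz1 is most often linked, were also set beside it. Of 11 listed genes, 8 were tested, and by the brightest probe 1 (Erbb3) was lower and 2 (S100b, mean 1.53, and Sox10, mean 0.76) were higher in all 3 pairs, against 9.65% and 9.93% of all genes, and the median of the means was 0.20. The transcription factor gene Sox10 had levels of 14.33, 13.54 and 14.37 in the RANK-/- RNAs against 13.21, 13.29 and 13.47 in the RANK+/+ RNAs, all of the former above all of the latter, as for 3.66% of all genes. S100b had log2 ratios of 3.78, 0.74 and 0.06. The lowest means of the list were those of Ngfr (-0.53) and Erbb3 (-0.17). The summed level was 15.20 to 15.72 in the RANK-/- RNAs and 14.84 to 15.25 in the RANK+/+ RNAs. Foxd3, a defining gene of early neural crest, was not well above background on any array (0 of 6 in each channel), and Olig2 did not pass the filter.

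The ligand gene Ptn, which encodes pleiotrophin, was set apart by 1 RNA. Its brighter probe, A_55_P2164629, had levels of 8.96, 9.16 and 9.30 in the RANK-/- RNAs and 11.38, 9.36 and 9.27 in the RANK+/+ RNAs of pairs 1, 2 and 3. Only the RANK+/+ RNA of pair 1 was high, and the other 5 RNAs lay between 8.96 and 9.36, so the genotypes overlapped. The log2 ratios were -2.42, -0.20 and 0.03, with a mean of -0.86 ± 1.35 (SD, n = 3; limma adjusted p = 0.999). Without pair 1 the mean was -0.08.

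The other Ptn probe also put the difference in pair 1 but did not keep the sign of pair 3. A_55_P2183404 gave log2 ratios of -2.17, -0.41 and -0.29, below 0 in all 3 pairs, with a mean of -0.95 ± 1.05. Arrays A and B differed by at most 0.07 for the brighter probe and 0.24 for the second. The RANK+/+ RNA of pair 1 was also the highest of all 6 RNAs for Tchh, at 12.59 against 8.12 and 7.49 in the other RANK+/+ RNAs and 6.27 to 6.59 in the RANK-/- RNAs, where Tchh was well above background on 3 of 6 arrays. For Krt73, another inner root sheath keratin, it stood at 11 against at most 8.63 in the other 5 RNAs. The other tested genes of the hair follicle list (Krt27, Krt71, Trps1, Lhx2 and Sox9) were not highest in that RNA. Krt27 stood at 8.64 there against 9 in the RANK+/+ RNA of pair 3, and Sox9, at 10.16, was lowest there. The pattern was not particular to hair follicle genes. By the brightest probe, the same RNA was also highest for Krt5, Krt14, Krt19, Dcn, Csf1r and Ptprc of the other marker lists. It was not highest for Acta2, Epcam, Col1a2 and Itgam of those lists. Whether any of these signals has the same source as that of Ptn was not tested.

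The ligand gene Mdk, which encodes midkine, went the other way in 2 pairs. Its levels by A_66_P107379 were 8.69, 8.19 and 8.80 in the RANK-/- RNAs and 8.08, 8.65 and 8.05 in the RANK+/+ RNAs. The genotypes overlapped because in pair 2 the order was turned. Log2 ratios were 0.60, -0.45 and 0.74, with a mean of 0.30 ± 0.65 (SD, n = 3; limma adjusted p = 0.999). The second probe, A_55_P1971897, gave 0.60, -0.11 and 1.04, with a mean of 0.51 ± 0.58. Neither ligand gene thus had, by its brighter probe, a difference in one direction in all pairs, and in pair 1 they differed in sign, with Ptn at -2.42 and Mdk at 0.60.

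The partner gene Cntn1, which encodes the lipid-anchored adhesion molecule contactin 1, was dim and close to even. Its raw median signals were 48 to 86 in the RANK-/- channel and 40 to 124 in the RANK+/+ channel. Normalized levels were 6.40, 6.46 and 6.72 in the RANK-/- RNAs and 6.40, 6.82 and 6.44 in the RANK+/+ RNAs, and the ranges overlapped. The log2 ratios of 0.01, -0.36 and 0.28 had a mean of -0.02 ± 0.32 (SD, n = 3; limma adjusted p = 0.999). The offset of 50 added in the background correction draws the ratios of dim probes toward 0.

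Nrcam, which encodes an adhesion molecule of the L1 family, differed by pair more than by genotype. Levels were 9.47, 7.44 and 7.95 in the RANK-/- RNAs and 7.89, 8.21 and 8.26 in the RANK+/+ RNAs. Only the RANK-/- RNA of pair 1 was high, and the other 2 RANK-/- RNAs were below the RANK+/+ level of their pair. The log2 ratios were 1.58, -0.78 and -0.31, with a mean of 0.17 ± 1.25 (SD, n = 3; limma adjusted p = 0.999), and without pair 1 the mean was -0.54. S100b was also highest in that RNA, at 13.10 against 9.32 to 12.09 in the other 5. Pair 1 differs from pairs 2 and 3 in dye arrangement too, and for values seen only in pair 1, RNA and dye arrangement cannot be told apart.

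The syndecan gene Sdc1, an abundant heparan sulfate proteoglycan of epithelia, had a small and even difference. Its levels were 11.38, 10.96 and 10.88 in the RANK-/- RNAs and 12.01, 11.37 and 11.76 in the RANK+/+ RNAs, so that the lowest RANK+/+ level was just under the highest RANK-/- level. Within each pair the RANK-/- channel was lower, with log2 ratios of -0.63, -0.40 and -0.88 and a mean of -0.64 ± 0.24 (SD, n = 3; SE 0.14), a 1.56-fold lower signal. The spread between pairs was the smallest among the 7 members. The difference did not pass limma (unadjusted p = 0.0152, adjusted p = 0.999). Sdc1 stood among the lowest genes, with 1.74% of genes below its mean.

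Sdc3, the neural syndecan that serves as a pleiotrophin receptor on axons, had the opposite sign. Its levels were 11.95, 11.30 and 11.68 in the RANK-/- RNAs and 10.20, 10.98 and 10.81 in the RANK+/+ RNAs, and all of the former lay above all of the latter. Log2 ratios of 1.75, 0.32 and 0.87 gave a mean of 0.98 ± 0.72 (SD, n = 3; SE 0.42), a 1.98-fold higher signal. This difference did not pass limma (unadjusted p = 0.0316, adjusted p = 0.999), and without pair 1 the mean was 0.60. In all, 99.1% of genes had a lower mean.

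**Figure D3:**
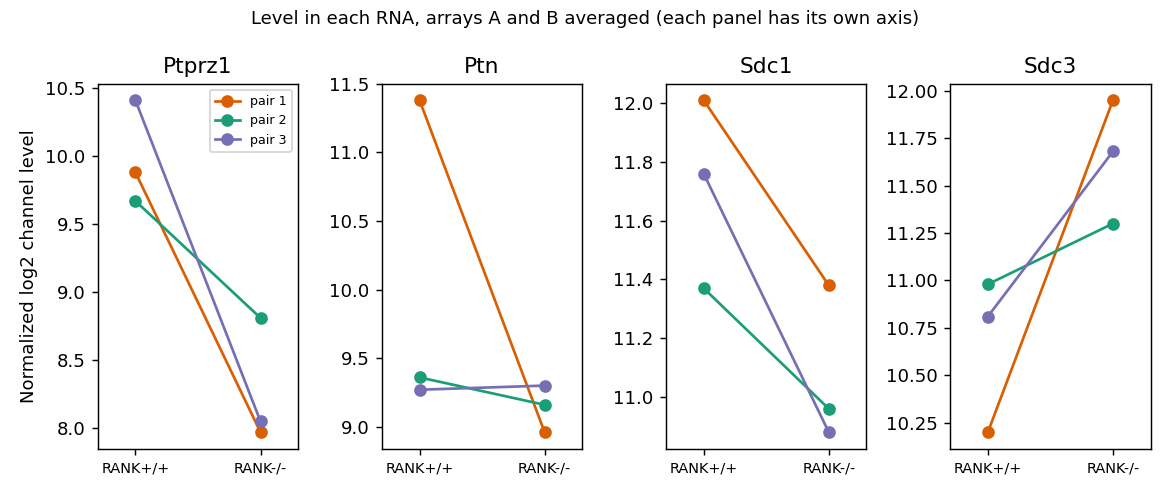
Normalized log2 channel level (y axis, a separate scale in each panel) of Ptprz1, Ptn, Sdc1 and Sdc3 in the RANK+/+ and RANK-/- RNA (x axis), with 1 line per pair joining the RNAs hybridized together, arrays A and B averaged. All Ptprz1 and Sdc1 lines slope down and all Sdc3 lines slope up toward RANK-/-, while only the pair 1 line of Ptn is steep, from 11.38 to 8.96.

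Fibroblast markers are given beside Sdc3 and Ptn, which mesenchymal cells can express. All 7 listed genes were tested, 3 (Col1a1, Col1a2 and Pdgfra) were higher in all 3 pairs (9.93% of all genes) and 0 lower (9.65%), and the median ratios were 0.16, 0.85 and 2.01 in pairs 1, 2 and 3. The highest means were those of Col1a2 (1.28) and Dcn (1.24), and the lowest those of Pdgfrb (0.44) and Pdgfra (0.54). Their summed level was 17.07 to 17.77 in the RANK-/- RNAs and 15.52 to 17.11 in the RANK+/+ RNAs. Beside them, the Sdc3 ratios were 1.75, 0.32 and 0.87, so that in pairs 2 and 3 both were larger in pair 3, whereas pair 1 had the largest Sdc3 ratio and the smallest fibroblast median. The Ptn ratios by its brighter probe were -2.42, -0.20 and 0.03, lowest in pair 1 and highest in pair 3, as were the fibroblast medians. The part of fibroblasts in the Sdc3 and Ptn results was not tested.

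The remaining marker lists are given for completeness. Over all genes, 9.65% were below 0 and 9.93% above 0 in all 3 pairs, and lists this small cannot be set apart from those shares. The luminal list (8 of 8 genes tested) had 0 genes of one sign in all pairs, with a summed level, without Krt8 which had an outlier spot, of 17.01 to 18.60 in the RANK-/- and 17.39 to 18.04 in the RANK+/+ RNAs. Its highest means were those of Elf5 (0.61) and Krt8 (0.37) and its lowest those of Krt19 (-1.71) and Aldh1a3 (-0.28). The endothelial list (4 of 4) had 0 such genes, with means from 0.00 (Cdh5) and 0.02 (Pecam1) to 0.17 (Kdr) and 0.21 (Tek), and a summed level of 11.43 to 11.63 in the RANK-/- and 11.13 to 11.54 in the RANK+/+ RNAs. The leukocyte list (5 of 6) had 1, Cd3e, whose mean was 0.08. Itgam was highest there (0.10) and Ptprc and Cd68 were lowest (-0.23 and -0.14), and the summed level was 12.83 to 13.30 against 12.79 to 13.09.

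Apart from Ptprz1, whose sign its choice fixed, by the brightest probe 1 of 6 members (Sdc1) was below 0 in all 3 pairs and 1 of 6 (Sdc3) above. These counts are too small to set apart from the shares over all genes. By its second probe Ptn was also below 0 in all 3 pairs. Levels without overlap between genotypes were seen for Sdc3 on the higher side, which 3.66% of genes showed. Ptprz1 had them on the lower side (3.82% of genes), which its choice by a low ratio favors, so this is only a description. The median of the members' means was -0.02, against 0.00444 over all genes. An exact two-sided sign-flip test over 3 pairs cannot give a p below 0.25, so no single gene could pass it.

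The wider pathway was then examined. Of 41 further genes of pleiotrophin and midkine signaling, 33 were tested and 0 were below 0 in all 3 pairs (9.65% of all genes). In all, 4 were above 0 in all 3 (12.1%, near the 9.93% of all genes), and 0 passed limma, with a median mean ratio of 0.12. These counts use the brightest probe of a gene, and second probes of Itgav (below 0 in all 3 pairs), Ptprg and Ncam1 (above 0 in all 3) differed from it. The 4 were the kinase Fyn, a substrate of PTPRZ1 (mean log2 ratio 0.29), the scaffold Magi3 (0.59), and Chpf (0.34) and Csgalnact1 (0.43), which build chondroitin sulfate chains. Ptprg, the closest relative of Ptprz1 among phosphatases, had ratios of 0.56, 0.33 and -0.24 by its brightest probe, A_55_P2006327, and of 0.29, 0.31 and 0.42 by A_55_P1992084. Genes that did not pass the filter on dim probes were Tnr, Alk, Cntn2, Cntn4, Cntn5, Cntn6, Ncan and Bcan, most of them genes of the nervous system.

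Among other receptors of the ligands, 7 of 8 were tested and by the brightest probe 0 had one sign in all pairs. Over all genes, 9.65% were below 0 and 9.93% above 0 in all 3, so a list this small cannot be set apart from them. The second probe of Itgav had -0.38, -0.22 and -0.10. Lrp1, the large endocytic receptor of midkine, had log2 ratios of -0.07, 0.47 and 1.13, and Ncl, which encodes nucleolin, had -0.69, 1.11 and -0.58. The integrin subunit genes Itgav and Itgb3 had means of -0.23 and 0.40. Of the other heparan sulfate carriers, Sdc2 had ratios of 0.98, -0.08 and 0.40, Sdc4 had -0.27, 0.74 and -0.03, and Gpc1 had -0.21, 0.58 and 0.80. The highest mean of the whole list was that of Ncam1 (0.60), an adhesion molecule, followed by Magi3, and the lowest were those of Chl1 (-0.35), a relative of Nrcam, and Itgav. Ctnnb1, which encodes the substrate beta-catenin, had 0.43, -0.03 and -0.88.

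**Figure D4:**
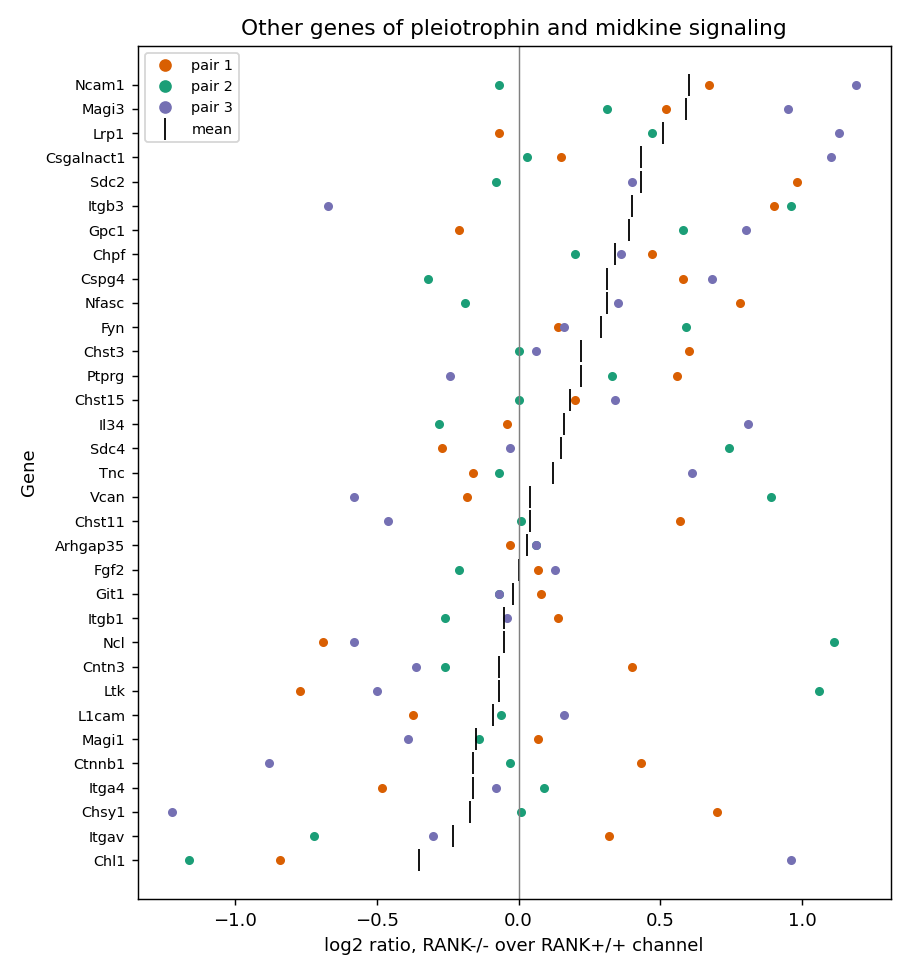
The log2 ratio of the RANK-/- over the RANK+/+ channel (x axis) of the 33 tested pathway genes other than the 7 members (y axis, ordered by mean), 1 point per pair and a black bar for the mean. Means run from -0.35 (Chl1) to 0.60 (Ncam1).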

How the data were processed

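RNA of sorted CD45- tumor cells was measured on 6 two-color Agilent arrays (SurePrint G3 Mouse). The authors extracted spots with Feature Extraction 10.7.3.1, and the deposited scanner tables give median spot and background intensity without normalization. The deposited series table holds log2 ratios normalized by the authors and served as an alternative. Its direction, found against the scanner values, was RANK-/- over RANK+/+ (r 0.979 to 0.98, slope 1.12 to 1.15, column medians -0.00965 to 0.00531), after the loess and Aquantile steps that the study's methods name.

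Median intensities were corrected with normexp (offset 50) on all 62976 spots in limma 3.58.1 (R 4.3.3, data.table version 1.17.8). Mean signals were not used here. After removal of 3671 control spots and 212 to 260 outlier spots, loess and Aquantile were applied, spots of a probe averaged, and ratios turned to RANK-/- over RANK+/+. Arrays A and B were averaged. The study's methods name dye swaps, whereas the labels give both arrays of a pair the same dyes, and the labels were followed. A probe was kept if, for one genotype, Feature Extraction found it well above background in 2 or more pairs, with arrays A and B alike (30231, 54.3%). Per array and genotype, 51.9% to 58.8% of probes were detected, and the number of arrays limits precision. RefSeq symbols (GRCm38.p6) were matched by accession for 28026 probes. The array grid names mm9, so coordinates come only from the RefSeq promoter windows. The brightest probe stood for a gene. Summed list levels are log2 of summed linear levels.

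Limma (lmFit, eBayes, Benjamini-Hochberg) and a rank product with 100 seeded draws, both at 0.05, ran on 3 pair ratios. Both were also run on simulated ratios in which all genes had the same SD and the moved genes shifted by 3 log2 units. That shift is larger than the mean ratio of any member, so the simulation does not show how either test performs on these data. Alternatives were other background offsets, processed intensities, the series table, median centring, spatial loess, no dim filter, single arrays, 6 arrays as replicates, probe means, a dye term, separate channels and each pair left out. The members, lists and tests were chosen with earlier results of these data known. Named were all members, the 2 highest and 2 lowest means of each list, genes of a list with one sign in all pairs, the 5 genes nearest to Ptprz1 and Tnfrsf11a. Other pathway and marker genes were named after their values were seen. Items withheld from this text are not reported here.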

Additional observations from a re-analysis of the deposited data

How the results depend on the processing

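Over the main and 13 alternative settings that kept all pairs, the mean log2 ratio was -1.94 to -1.66 for Ptprz1, -1.25 to -0.85 for Ptn, -0.86 to -0.63 for Sdc1, 0.76 to 1.17 for Sdc3, 0.13 to 0.41 for Mdk, 0.02 to 0.52 for Nrcam and -0.08 to 0.00 for Cntn1. Some of these settings left every member's mean at its main value, namely no dim filter, 6 arrays as replicates and separate channels. They thus say nothing about how stable the means are. Leaving out 1 pair at a time gave -2.13 to -1.39 for Ptprz1, -1.31 to -0.08 for Ptn, -0.76 to -0.52 for Sdc1, 0.60 to 1.31 for Sdc3, 0.08 to 0.67 for Mdk, -0.54 to 0.64 for Nrcam and -0.18 to 0.15 for Cntn1. Mdk was 0.08 without pair 3, 0.15 without pair 1 and 0.67 without pair 2.

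The pfp by which Ptprz1 was chosen was under 0.05 with an offset of 16, spatial loess, no dim filter and probe means (0.0278 to 0.0489) and above it with an offset of 0, processed intensities, median centring, the series table and arrays A or B alone (0.0509 to 0.135). It was 0.652, 0.127 and 0.505 without pairs 1, 2 and 3. The rank product called 12 genes lower at first, 6 with median centring, 5 with probe means and 22 without the dim filter, which tests 36799 genes, and 2 to 5 with a pair left out. It called 11 with 1000 draws, a setting added after seeing the data. Treating 6 arrays as 6 replicates gave 315 such calls and 298 limma calls in place of 0, and separate channels with no replicate block gave 825 from 9 ratios that reuse each RNA; in both, repeated RNAs count as replicates by construction. The rank product was not run with a dye term. No paired analysis was possible beyond this because both RNAs of a pair share their arrays, so every ratio is already within a pair. Cntn1 is the one member whose signal lies near background.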
